A study of Mus musculus with 10 samples.

Results

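The IGHV3 (36-60) family is a small group of heavy-chain variable gene segments of the mouse *Igh* locus. Its 6 members examined here, IGHV3-1, IGHV3-3, IGHV3-4, IGHV3-5, IGHV3-6 and IGHV3-8, were chosen by name. A rearrangement was counted to a member only if it was listed with that V gene and no other. By this rule the members held 1360 of 195529 clonotypes, and 4 of the 6 had at least 1 clonotype, among 141 V genes that did. A clonotype here is a row of the deposited tables, with its V, D and J genes, the amino acids of its CDR3 and a read count. The DNA came from B-1a cells sorted from the peritoneal cavity, and its rearranged *Igh* loci were sequenced after PCR in 4 libraries, 2 from wild-type (WT) and 2 from Igll1-/- mice. All mice were C57BL/6 and 6 to 8 weeks old, and the Igll1-/- animals carry the disrupted *Igll1* gene in the germline. The number of mice behind a library is not given in the sources used here, so the spread between replicates may be partly technical. DNA rearrangements do not show whether *Igll1* was absent, and the genotypes therefore rest on the labels.

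The variable domain of a heavy chain is assembled from a V, a D and a J segment, and the junction of the 3 forms CDR3, the most variable loop of the antibody. V segments are grouped into families by sequence, and the 36-60 family lies among the intermediate families of the locus, between the D-proximal and the D-distal V genes. *Igll1* encodes λ5, which together with VpreB forms the surrogate light chain (SLC) that tests a new heavy chain as part of the pre-BCR. B-1a cells are innate-like B cells of the body cavities, and IGHV12-3 (VH12) and IGHV11-2 (VH11) are the V genes known for the phosphatidylcholine (PtC) receptors of this compartment. In the RefSeq annotation of GRCm38.p6, Ighv3-1 was the 37th of 183 V segments counted from the D segments and lay beside Ighv11-1. Ighv3-3 was the 54th, and Ighv3-4 and Ighv3-5 were adjacent at the 56th and 57th places. Ighv3-6 was the 59th, between Ighv13-1 and Ighv9-4, and Ighv3-8 the 63rd, whereas Ighv3-2 and Ighv3-7 are annotated as pseudogenes. The deposited tables name no genome build, so only this order was taken from the annotation.

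The CDR3 sequences that recur in the results are printed first. The following are the largest productive clonotypes of IGHV3-6 by reads in each library.
with IGHJ3, WT replicate 1: AYGNWFAY
with IGHJ1, WT replicate 2: ARGSYWYFDV
with IGHJ1, Igll1-/- replicate 1: ANGNYWYFDV
with IGHJ1, Igll1-/- replicate 2: AREYDLYWYFDV
The next 4 are the largest productive clonotypes of IGHV3-3. The last is tied at 11 reads with AREYDLYWYFDV, the CDR3 that also led IGHV3-6 in that library.
with IGHJ1, WT replicate 1: ARDYYGNWYFDV
with IGHJ3, WT replicate 2: ARERNYSNYVWFAY
with IGHJ1, Igll1-/- replicate 1: AGDNYGYWYFDV
with IGHJ2, Igll1-/- replicate 2: AGDLYDGYYYFDY
In this set, 3 of the 4 leading IGHV3-6 clonotypes used IGHJ1. The AGD at the start of 2 IGHV3-3 sequences is also the usual start of IGHV12-3 CDR3s, where 67.9% of 7826 productive clonotypes carried it.

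The WT libraries held 55129 and 49809 clonotypes and the Igll1-/- libraries 32386 and 58205, from 180593 to 285517 reads per library. Between 68.0% and 73.4% of clonotypes rested on a single read. Of the V genes known for PtC receptors, IGHV12-3 held 4.32% to 5.09% of clonotypes in all 4 libraries. IGHV11-2 held 2.99% and 4.79% in WT and 0.821% and 0.960% in Igll1-/- libraries. With no *Igh* library of another cell type to compare, these shares do not test the B-1a label. The surface markers of the sort cannot be checked in DNA. The share of any V gene depends on how well its primer in framework region 3 bound, so an order of levels among genes is that of recovered rearrangements. Intervals below cover counting error only, since reads carried no molecular identifier.

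IGHV3-6 was the main member of the family in every library. WT replicates had 431 and 210 clonotypes of this gene, and Igll1-/- replicates 155 and 273. Their shares of all clonotypes were 0.782% (Wilson 95% interval 0.712 to 0.859), 0.422% (0.368 to 0.482), 0.479% (0.409 to 0.560) and 0.469% (0.417 to 0.528), in the same order. WT replicate 1 therefore stood above the other 3 libraries, whose intervals overlapped. IGHV3-6 ranked 33rd, 47th, 44th and 43rd among V genes by clonotypes. It made up 81.3% and 81.1% of the family's clonotypes in WT and 79.1% and 72.8% in Igll1-/- libraries.

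IGHV3-3 was the other member recovered in number, with 97 and 48 clonotypes in WT and 41 and 101 in Igll1-/- libraries. Its shares were 0.176% (Wilson 95% interval 0.144 to 0.215) and 0.0964% (0.0727 to 0.128) in WT, and 0.127% (0.0933 to 0.172) and 0.174% (0.143 to 0.211) in Igll1-/- libraries. The genotypes overlapped, and within each library IGHV3-3 lay below IGHV3-6 without any overlap of their intervals.

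The remaining members were at or near the limit of detection. IGHV3-1 had 1 clonotype in each WT library and 0 in both Igll1-/- libraries, with 1 read behind each. The CDR3 was AGDRFGYWYFDV in WT replicate 1 and 16 residues long in WT replicate 2, and they matched the germline V gene over only 90.5% and 86.8% of the sequenced part. IGHV3-8 had 1 clonotype in WT replicate 1, with the CDR3 ARYGYYFDY, and 1 in Igll1-/- replicate 2, with ARYYGSSYWYFDV. IGHV3-4 and IGHV3-5 had 0 clonotypes in all 4 libraries. A count of 0 allows a share of up to 0.00544%, 0.00602%, 0.00926% and 0.00515% of clonotypes in WT replicates 1 and 2 and Igll1-/- replicates 1 and 2 (3 clonotypes of the total), for counting error only. With at most 1 clonotype in any library, these 4 genes did not reach the minimum for the comparison of genotypes.

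Further rearrangements were listed as IGHV3-1 or IGHV3-2 and so counted to no member. There were 28 and 38 of them in WT and 53 and 27 in Igll1-/- libraries, or 0.0508%, 0.0763%, 0.164% and 0.0464% of clonotypes. Igll1-/- replicate 1 was the highest and Igll1-/- replicate 2 the lowest, so the genotypes overlapped. Between 94.7% and 100% of them were productive, with a mean germline identity of 93.3% to 94.7%.

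**Figure D1:**
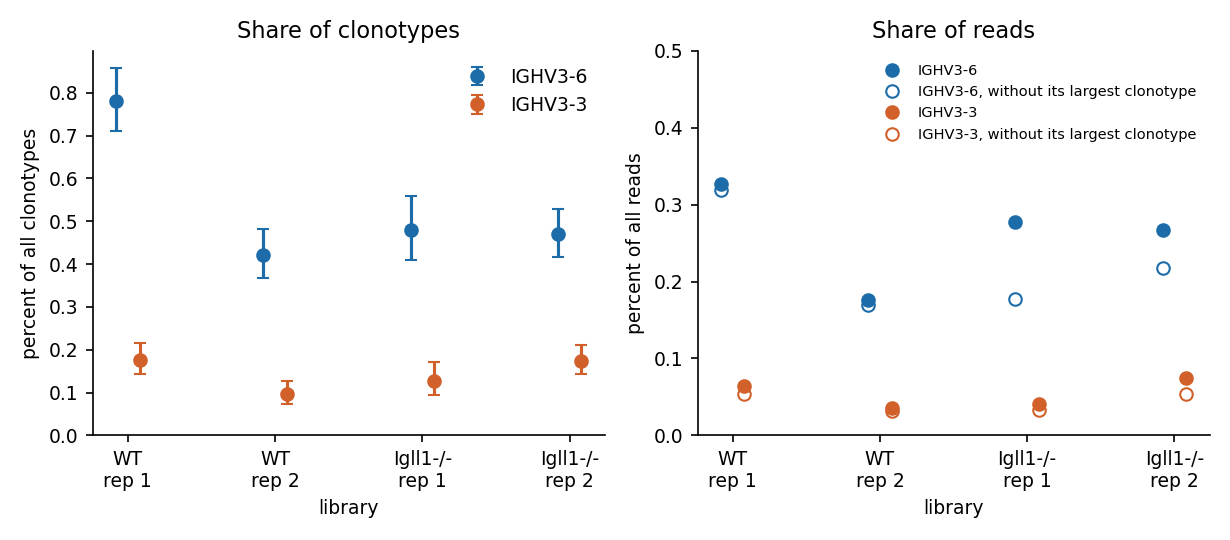
Left, percent of all clonotypes on IGHV3-6 (blue) and IGHV3-3 (orange) in each library, with Wilson 95% intervals. Right, percent of all reads (filled) and the same without the largest clonotype of the gene (open); IGHV3-6 was highest at 0.782% of clonotypes in WT replicate 1, and both Igll1-/- libraries lay between the WT libraries.

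To see whether loss of SLC changed the use of the family, clonotypes per V gene were compared between genotypes with edgeR's quasi-likelihood test. Neither member that could be tested differed. IGHV3-6 held 0.602% ± 0.255 (SD, n = 2) of clonotypes in WT and 0.474% ± 0.007 (SD, n = 2) in Igll1-/- libraries. Its log2 fold change in Igll1-/- over WT was −0.35 (SE 0.48, 95% interval −1.58 to 0.89, edgeR adjusted p = 0.814). IGHV3-3 held 0.136% ± 0.056 and 0.150% ± 0.033 (SD, n = 2 each), with a log2 fold change of 0.14 (SE 0.54, 95% interval −1.26 to 1.55, edgeR adjusted p = 0.924). At the threshold of 0.05 on the adjusted p-value, 0 of these 2 members were called, as were 0 of all 91 V genes tested (0%), of which 8 had an unadjusted p-value under 0.05. The width of these intervals means that the test does not show the genotypes to be alike.

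As a whole the family made up 0.961% and 0.520% of clonotypes in the WT libraries and 0.605% and 0.644% in the Igll1-/- libraries. Both Igll1-/- values lay between the WT values. The log2 fold change of the family was −0.25 (SE 0.38, 95% interval −1.36 to 0.87, edgeR adjusted p = 0.727, 13 families tested, 0 called, 0%). An exact two-sided permutation test of the percentages gave p = 1, where 2 libraries against 2 cannot go below 0.333. For 8 of the 13 families (61.5%) the genotypes did not overlap, and IGHV3 was not among them. Likewise neither member was among the 16 of 91 V genes (17.6%) that were higher in each Igll1-/- than in each WT library, nor among the 18 (19.8%) that were lower. With at least 2 reads per clonotype the log2 fold change was −0.76 for IGHV3-6 and −0.60 for the family (edgeR adjusted p = 0.577 and 0.570). The direction rested on WT replicate 1. Without it the log2 fold change was 0.27 for the family and 0.17 for IGHV3-6. In WT replicate 1, 14.3% of clonotypes were assigned several V genes, against 19.5% to 21.3% in the other libraries. With library sizes taken from clonotypes of a single V gene, the log2 fold change was −0.30 for IGHV3-6 and −0.20 for the family.

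**Figure D2:**
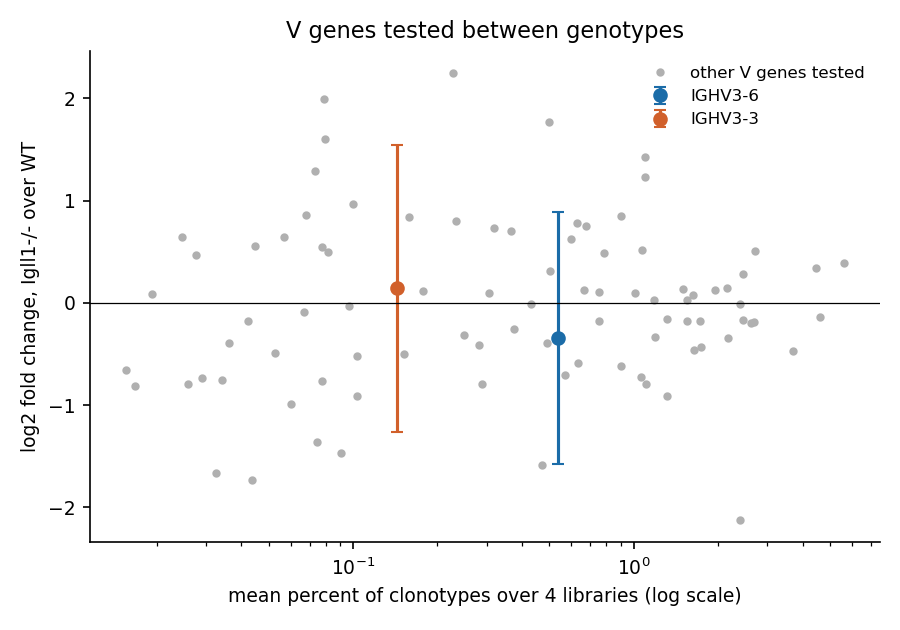
Log2 fold change of each of 91 V genes in Igll1-/- over WT B-1a cells against its mean percent of clonotypes over the 4 libraries (log axis), with edgeR's 95% intervals for IGHV3-6 (blue) and IGHV3-3 (orange). Both intervals cross 0, at −0.35 for IGHV3-6 and 0.14 for IGHV3-3.

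The family was then set beside V genes of other intermediate families and the V genes most like it. No gene of the intermediate families IGHV13, IGHV15 and IGHV16 entered the test. Of 11 V genes tested from IGHV4, IGHV9, IGHV11, IGHV12 and IGHV14, 0 were called in either direction (edgeR adjusted p under 0.05), and 1 had an unadjusted p-value under 0.05. Their log2 fold changes were above 0 for 6 and below 0 for 5, with a median of 0.03 against −0.03 over all 91 V genes. IGHV11-2 had a log2 fold change of −2.12 (SE 0.32, edgeR adjusted p = 0.122) and IGHV12-3 of −0.14 (SE 0.15, edgeR adjusted p = 0.790). Among the 89 other V genes tested, the 3 with the pattern closest to the family over the 4 libraries all belonged to IGHV1. They were IGHV1-37, IGHV1-72 and IGHV1-80, with a root mean square difference from the family of 0.11, 0.12 and 0.13 in centred log2 percent of clonotypes. IGHV1-72, for example, held 3.27% and 1.91% in WT and 2.49% and 2.12% in Igll1-/- libraries. IGHV1-37 rests on only 34 and 14 clonotypes in WT and 13 and 23 in Igll1-/- libraries, so its place is uncertain by counting error.

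By reads the family took a smaller share than by clonotypes, 0.392% and 0.213% in WT and 0.318% and 0.342% in Igll1-/- libraries. When reads were tested in place of clonotypes, 0 of the 2 members were called, with a log2 fold change of 0.12 for IGHV3-6 (SE 0.60, edgeR adjusted p = 0.930), against 1 of 91 V genes (1.1%), which was IGHV11-2. DESeq2 on clonotypes likewise called 0 of the 2 members and 1 of 91 V genes (1.1%), again IGHV11-2. A family clonotype had on average 1.60 and 1.75 reads in WT and 2.93 and 2.60 in Igll1-/- libraries, and a clonotype of the other V genes 4.04, 4.30, 5.52 and 4.97. The family was lower in 4 of 4 libraries, by 2.49 ± 0.11 reads (mean ± SD over libraries; exact sign-flip permutation test, p = 0.125, the smallest that 4 libraries allow, and 0.2375 after Benjamini-Hochberg adjustment over 19 comparisons within libraries). The mean of the other V genes is a pooled one. Against single V genes, IGHV3-6 had 1.64 and 1.79 reads per clonotype in WT and 3.23 and 2.80 in Igll1-/- libraries, where the median gene had 2.02, 2.21, 2.51 and 2.92. IGHV3-6 thus lay above the median gene in Igll1-/- replicate 1 and below it in the other 3 libraries. For both the family and the other V genes, reads per clonotype were higher in both Igll1-/- libraries than in both WT libraries (exact permutation test, p = 0.333 for each), as 11 of 13 families (84.6%) also showed no overlap of the genotypes in this measure.

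The largest clonotype of IGHV3-6 took more of the gene's reads in each Igll1-/- library than in each WT library. It held 17 and 16 reads in WT, or 2.41% and 4.27% of the gene's reads. It held 180 and 143 reads in Igll1-/- libraries, or 35.9% and 18.7%. The genotypes did not overlap in this share for 42 of 87 V genes (48.3%), and no test was made. Without the largest clonotype the gene took 0.319% and 0.169% of reads in WT and 0.178% and 0.218% in Igll1-/- libraries, and again the Igll1-/- values lay between the WT values. The 180 reads of Igll1-/- replicate 1 were ANGNYWYFDV with IGHJ1, a germline-identical clonotype that also occurred with 2, 7 and 1 reads in the other libraries. The 143 reads of Igll1-/- replicate 2 were AREYDLYWYFDV with IGHJ1, which had 0 reads on IGHV3-6 in each other library. Each of these clonotypes was therefore large in 1 library.

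IGHV3-3 had no productive clonotype above 21 reads. That clonotype, ARDYYGNWYFDV in WT replicate 1, took 15.2% of the gene's reads there. The largest clonotype of the gene in any library was unproductive, with 56 reads in Igll1-/- replicate 2 and a stop codon in its CDR3. It held 26.5% of the reads of IGHV3-3 in that library.

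Productive rearrangements can encode a heavy chain, whereas unproductive ones are carried along on the other allele. Of IGHV3-6 clonotypes, 95.4% and 94.3% were productive in WT and 92.9% and 94.9% in Igll1-/- libraries. Of IGHV3-3 clonotypes, 77.3% and 91.7% were productive in WT and 85.4% and 81.2% in Igll1-/- libraries, with 4 to 22 unproductive clonotypes per library. IGHV3-3 was lower than IGHV3-6 in 4 of 4 libraries, by 2.62 to 18.0 percentage points (mean 10.5, SD 6.78; exact sign-flip permutation test, p = 0.125, adjusted 0.2375). Among the 87 to 91 V genes tested that were present in a library, IGHV3-3 had the 9th, 30th, 14th and 5th lowest productive share, and the median gene was at 92.4% to 94.1%. By reads, 63.0% of IGHV3-3 reads were productive in Igll1-/- replicate 2, the library with the unproductive clonotype of 56 reads, and 79.7% to 91.8% in the others.

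The productive share of the family was 92.1% and 93.8% in WT and 91.3% and 91.2% in Igll1-/- libraries. Both Igll1-/- libraries lay below both WT libraries, with a difference of −1.69 percentage points between the means (exact permutation test, p = 0.333). The genotypes did not overlap in this measure in 7 of 13 families (53.8%). In the other V genes the order was the opposite, at 92.1% and 92.7% in WT and 93.5% and 93.6% in Igll1-/- libraries. Both contrasts were those of clonotypes. By reads the family was productive at 93.4% and 95.6% in WT and 96.9% and 87.6% in Igll1-/- libraries, where the genotypes overlapped, and the other V genes at 95.4% and 94.5% in WT and 93.9% and 91.6% in Igll1-/- libraries. In the edgeR fit the change of productive relative to unproductive clonotypes was −0.30 on the log2 scale for the family (SE 0.36, edgeR adjusted p = 0.713). It was −0.24 for IGHV3-6 (SE 0.49, edgeR adjusted p = 0.894) and −0.07 for IGHV3-3 (SE 0.65, edgeR adjusted p = 0.993). Over clonotypes of 2 or more reads the change was −1.54 for the family and −2.18 for IGHV3-6 (edgeR adjusted p = 0.609 and 0.646). Of the 75 V genes in this fit 0 were called (0%), with 9 at an unadjusted p-value under 0.05, and of 13 families 0 were called (0%), with 2 at an unadjusted p-value under 0.05.

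CDR3 length sets the size of the loop at the centre of the binding site. Productive IGHV3-6 clonotypes had a mean CDR3 length of 10.6 and 10.5 amino acids in WT and 10.6 and 11.2 in Igll1-/- libraries, and IGHV3-3 clonotypes of 11.57 and 10.75 in WT and 10.97 and 10.93 in Igll1-/- libraries. For the family the means were 10.7 and 10.6 in WT and 10.6 and 11.1 in Igll1-/- libraries, so the genotypes overlapped. The difference of 0.26 amino acids was within the spread of the Igll1-/- replicates (SD 0.36; exact permutation test, p = 0.667). Single clonotypes of the family spanned 4 to 27 amino acids. Against the other V genes the family was longer in 2 of 4 libraries (mean difference 0.15, SD 0.41; exact sign-flip permutation test, p = 0.875, adjusted 0.875). A length of 12 amino acids was the most common for IGHV3-3, at 25.3% and 29.5% of its productive clonotypes in WT and 25.7% and 19.5% in Igll1-/- libraries. These peaks rest on 19, 13, 9 and 16 clonotypes. The other V genes had 17.5%, 16.8%, 15.7% and 13.1% at this length. It was their most common length too, except in Igll1-/- replicate 2, where 10 amino acids had 13.3%. IGHV3-6 also peaked at 12 in both WT libraries and Igll1-/- replicate 2, with 16.8%, 16.7% and 18.9%. In Igll1-/- replicate 1 the IGHV3-6 clonotypes instead peaked at 10 amino acids, the length of ANGNYWYFDV, with 20.1%.

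**Figure D3:**
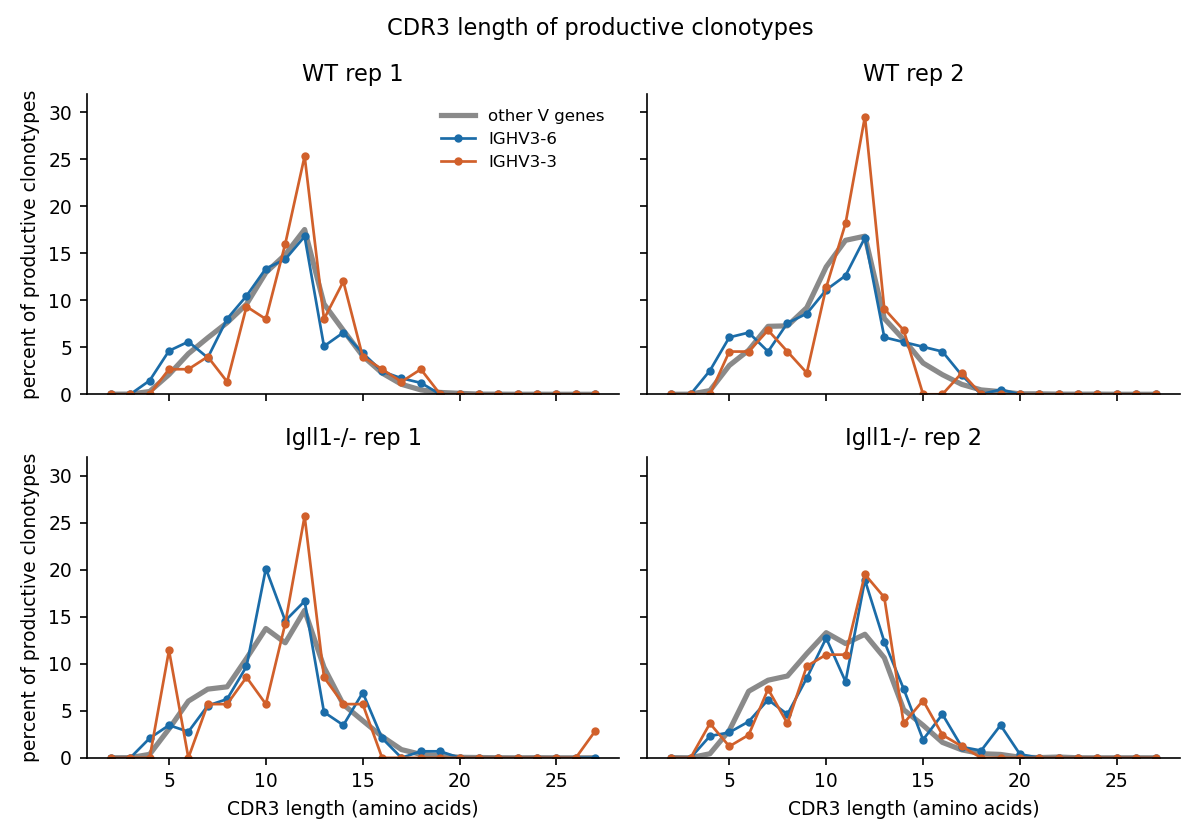
Percent of productive clonotypes at each CDR3 length in amino acids, for IGHV3-6 (blue), IGHV3-3 (orange) and all other V genes (grey), with a panel per library. IGHV3-3 peaked at 12 amino acids in all 4 libraries, as IGHV3-6 did except in Igll1-/- replicate 1, where it peaked at 10.

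Family clonotypes were joined to IGHJ1 more often than those of other V genes in every library. The share on IGHJ1 was 19.1% and 25.1% in WT and 24.0% and 22.1% in Igll1-/- libraries, against 13.50%, 19.26%, 13.01% and 11.03% for the other V genes. The difference was 8.37 ± 3.09 percentage points (mean ± SD over 4 libraries; exact sign-flip permutation test, p = 0.125, adjusted 0.2375). IGHJ2 was lower in 4 of 4 libraries (mean difference −2.96 points, SD 1.36), and IGHJ3 lower in 4 of 4 (mean difference −3.87 points, SD 3.64), with the same p-values (exact sign-flip permutation test). IGHJ2 was still the most frequent J gene of the family, at 38.8% to 42.9%. IGHV3-6 had the 12th, 11th, 7th and 8th highest IGHJ1 share among the V genes tested, and IGHV3-3 the 6th, 6th, 14th and 10th. The share was also taken without clonotypes 1 residue from a clonotype of at least 10 times the reads. It was then 19.1% and 24.5% in WT and 16.3% and 19.3% in Igll1-/- libraries for the family. The other V genes had 10.8%, 15.5%, 11.2% and 9.90%. In Igll1-/- replicate 1 the share of IGHV3-6 went from 25.2% to 16.5%.

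Between genotypes, IGHV3-6 clonotypes on IGHJ4 were 15.8% and 14.8% in WT and 20.6% and 19.8% in Igll1-/- libraries, and those on IGHJ2 were 44.3% and 42.9% in WT and 36.8% and 37.4% in Igll1-/- libraries. Neither pair of groups overlapped (exact permutation test, p = 0.333 for each), which was also so for 42 of 87 V genes (48.3%) with IGHJ2 and for 38 of 87 (43.7%) with IGHJ4. Over 18 measures compared in this way the genotypes did not overlap in 7 for IGHV3-6, in 4 for IGHV3-3 and in 11 for all other V genes together, and no exact p-value could fall below 0.333. In the fit over pairs of V and J gene, the 8 pairs of IGHV3-3 or IGHV3-6 with IGHJ1 to IGHJ4 had log2 fold changes from −0.59 to 0.75 and edgeR adjusted p-values from 0.738 to 0.980. Of these 8 pairs 0 were called, against 1 of all 272 pairs tested (0.368%), which was IGHV11-2 with IGHJ1. The extremes were IGHV3-6 with IGHJ2 at −0.59 (SE 0.51) and IGHV3-3 with IGHJ2 at 0.75 (SE 0.59).

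**Figure D4:**
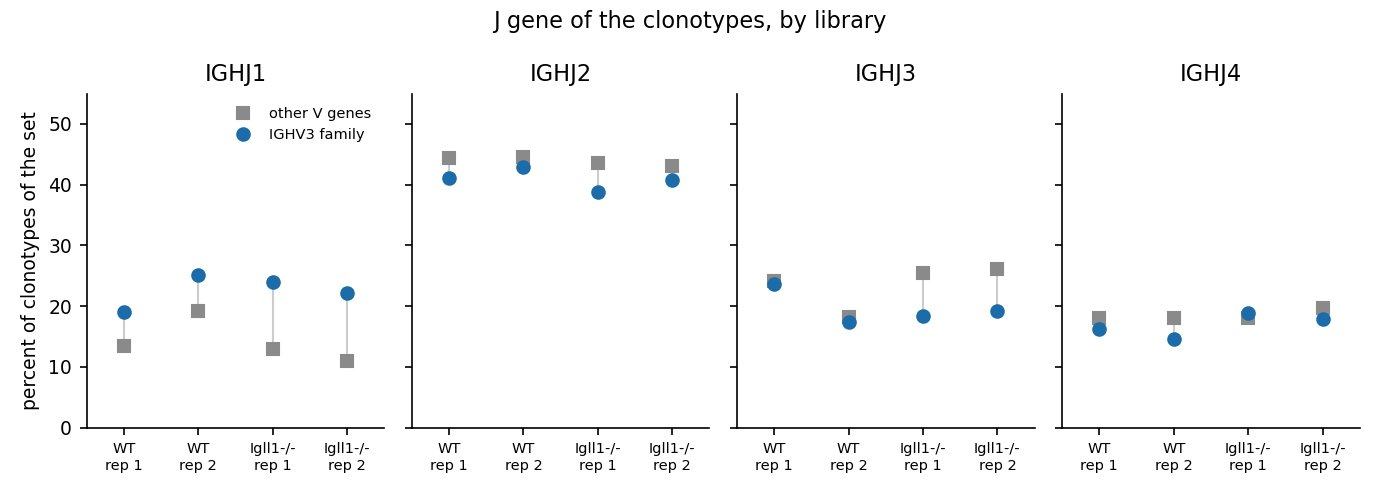
Percent of clonotypes on each J gene for the IGHV3 family (blue circles) and all other V genes (grey squares) in the 4 libraries, joined by a line within each library. The family lay above the other V genes for IGHJ1, by 5.55 to 11.1 percentage points, and below them for IGHJ2 and IGHJ3 in all 4 libraries.

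IGHD1-1 was the most frequent D gene of the family, with 27.0% and 24.3% of clonotypes in WT and 29.6% and 33.1% in Igll1-/- libraries. The share of IGHD2-3 exceeded that of the other V genes in 4 of 4 libraries, by 0.648 to 11.3 percentage points (mean 3.59, SD 5.14, exact sign-flip permutation test, p = 0.125, adjusted 0.2375). The other V genes had 10.8% and 10.4% in WT and 9.56% and 11.7% in Igll1-/- libraries. The difference was largest in Igll1-/- replicate 2, where 22.9% of family clonotypes carried IGHD2-3, against 10.2% to 12.1% in the other libraries. IGHD2-3 is the D gene of both AREYDLYWYFDV and the unproductive IGHV3-3 clonotype of 56 reads, the large family clonotypes of that library. When clonotypes that differed by 1 residue from a clonotype of at least 10 times the reads were left out, the share there was 17.5%, and the family stayed above the other V genes in 4 of 4 libraries. IGHD4-1, the short D gene next to J, was lower in the family in 4 of 4 libraries (differences of −3.96 to −0.999 points, mean −2.10; exact sign-flip permutation test, p = 0.125, adjusted 0.2375). No D gene was assigned in 8.68% and 11.2% of WT and 6.63% and 7.20% of Igll1-/- family clonotypes, against 4.88% to 6.18% for the other V genes.

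Few family clonotypes matched a germline V gene in full over the sequenced part. The most common identity was 97.44% for IGHV3-6 and 99.15% for IGHV3-3 in all 4 libraries. Between 54.6% and 65.7% of IGHV3-6 clonotypes and between 41.5% and 58.8% of IGHV3-3 clonotypes lay at exactly that value. Only 1.93% to 4.08% of family clonotypes were at 100%, against 39.9% to 46.8% for the other V genes, a difference in 4 of 4 libraries (mean −41.3 points, SD 3.61; exact sign-flip permutation test, p = 0.125, adjusted 0.2375). Such a low share was not particular to the family, since IGHV3-6 had the 33rd, 31st, 29th and 33rd lowest share at 100% among the 87 to 91 V genes tested. The leading IGHV3-6 clonotypes of the Igll1-/- libraries, ANGNYWYFDV and AREYDLYWYFDV, were both at 100%. Those of the WT libraries, AYGNWFAY and ARGSYWYFDV, were both at the common 97.44%. Germline sequences were not used here, so the positions behind the common values are not known.

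Many family clonotypes had a CDR3 that also occurred on another V gene in the same library. A clonotype was called a CDR3 twin where the same CDR3 amino acids and J gene were listed under another V gene with at least 10 times the reads. Twins made up 15.3% and 23.8% of IGHV3-6 clonotypes in WT and 14.2% and 37.0% in Igll1-/- libraries, and 21.6%, 45.8%, 43.9% and 42.6% of IGHV3-3 clonotypes. IGHV3-3 had the larger share in 4 of 4 libraries (mean difference 15.9 points, SD 11.9; exact sign-flip permutation test, p = 0.125, adjusted 0.2375). The family as a whole did not stand out, with a larger share of twins than the other V genes in 2 of 4 libraries (p = 0.5, adjusted 0.559, exact sign-flip permutation test).

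The partner of the twins was most often IGHV12-3. It held the larger clonotype for 78 of the 345 family twins (22.6%), with 25 and 18 in WT and 13 and 22 in Igll1-/- libraries. IGHV5-17 followed with 27 and IGHV11-2 had 22. Twins of IGHV12-3 were 4.72% and 6.95% of family clonotypes in WT and 6.63% and 5.87% in Igll1-/- libraries. The family exceeded the other V genes, IGHV12-3 left out, in 4 of 4 libraries by 5.21 ± 0.82 percentage points (mean ± SD; exact sign-flip permutation test, p = 0.125, adjusted 0.2375). By this share IGHV3-3 ranked 2nd, 2nd, 1st and 3rd among the V genes tested and IGHV3-6 ranked 4th, 7th, 10th and 4th. Its values for IGHV3-3 were 6.19% and 14.6% in WT and 19.5% and 5.94% in Igll1-/- libraries, which rest on 6, 7, 8 and 6 clonotypes. A high share was not particular to the family. IGHV10-1 had 11.5% of 218 and 10.98% of 437 clonotypes in the WT libraries, above the family in each. In both Igll1-/- libraries IGHV10-1 had 3.7%, below the family. IGHV12-3 was the most frequent partner of the family's own twins in these same libraries. A comparison on that partner therefore favours an excess, and the difference and the ranks are a description.

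The shared CDR3s were largely of the AGD type. Of 75 productive family clonotypes with an IGHV12-3 twin, 65 (86.7%) began with AGD, against 0 of 261 with another twin and 8 of 916 (0.873%) with none. As most IGHV12-3 CDR3s begin this way, the way the clonotypes were selected favours AGD, and the counts are a description. AGDNYGYWYFDV had 13 reads on IGHV3-3 in Igll1-/- replicate 1, where the largest IGHV12-3 clonotype with this CDR3 had 22183 reads. AGDLYDGYYYFDY had 11 reads on IGHV3-3 in Igll1-/- replicate 2 beside 10479 on IGHV12-3. The single IGHV3-1 clonotype AGDRFGYWYFDV had 115 reads on IGHV12-3. Family clonotypes with an IGHV12-3 twin had a mean germline identity of 95.3%, other twins 95.6% and clonotypes without a twin 97.1%. What gave rise to the shared CDR3s was not tested.

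Leaving out all twins from both sides, the family still exceeded the other V genes in IGHJ1 in 4 of 4 libraries, by 6.84 ± 4.52 percentage points (mean ± SD). The productive share of IGHV3-3 without twins was 72.4% and 84.6% in WT and 78.3% and 70.7% in Igll1-/- libraries, below IGHV3-6 in 4 of 4 libraries by a mean of 17.0 points (SD 6.44). Family twins were mostly productive, 75 of 78 with IGHV12-3 and 261 of 267 others, against 916 of 1015 without a twin. As IGHV3-3 held more twins than IGHV3-6, leaving them out by itself widens this gap. The log2 fold change without twins was −0.32 for IGHV3-6 (edgeR adjusted p = 0.809) and 0.05 for IGHV3-3 (edgeR adjusted p = 0.951).

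**Figure D5:**
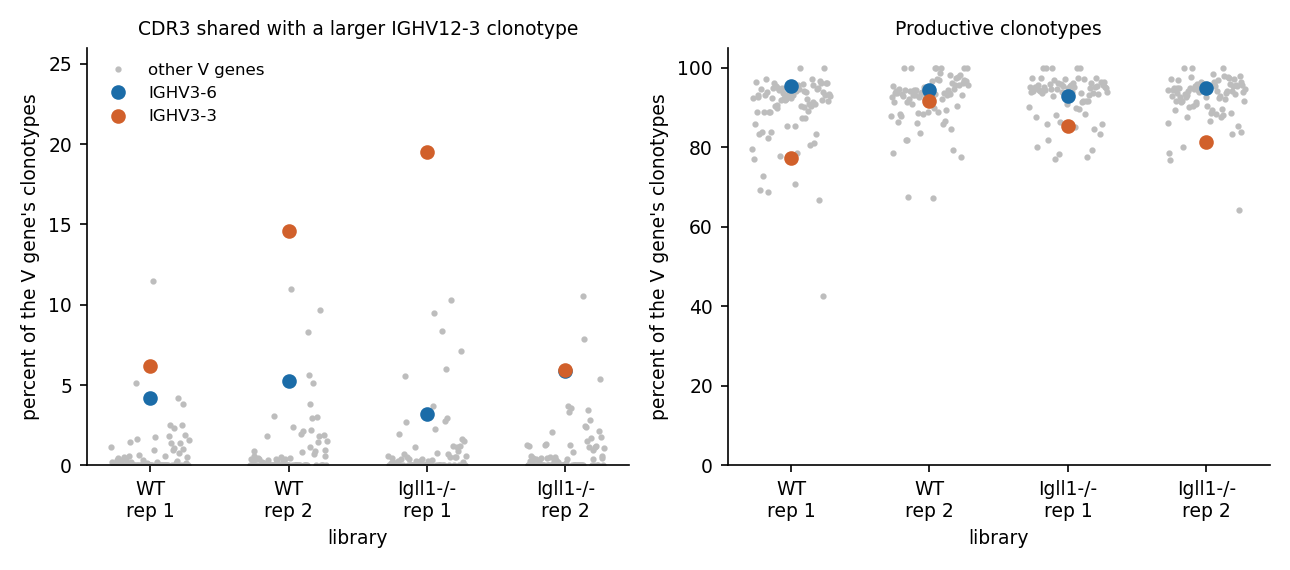
Left, percent of the clonotypes of a V gene whose CDR3 and J gene were also listed under IGHV12-3 with at least 10 times the reads; right, percent of productive clonotypes; each grey point is another V gene with at least 10 clonotypes in the library, IGHV12-3 left out. IGHV3-3 (orange) reached 19.5% in Igll1-/- replicate 1 on the left and lay below IGHV3-6 (blue) on the right in all 4 libraries.

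Finally, clonotypes were compared between libraries by V gene, J gene and CDR3. Of 1141 distinct productive family clonotypes, 1054 (92.4%) occurred in 1 library, 72 in 2, 12 in 3 and 3 in all 4. For the other V genes 85.6% of 120274 occurred in 1 library and 1.16% in all 4, against 0.263% for the family. These shares depend on depth and on how many clonotypes a gene has, so they are given as a description. The WT libraries shared 42 family clonotypes, which were 8.62% of those of replicate 1 and 17.3% of those of replicate 2. The Igll1-/- libraries shared 9, or 5.06% and 2.66% of theirs. A WT and an Igll1-/- library shared 11 to 27. The genotypes thus had family clonotypes in common, and WT replicate 1, with the most family clonotypes, took part in the largest counts. The 3 clonotypes found in all 4 libraries were all on IGHV3-6.
with IGHJ1: ANGNYWYFDV
with IGHJ2: ARDY
with IGHJ1: ARFYYGSSYWYFDV
ARDY had 1 and 2 reads in WT and 6 and 12 in Igll1-/- libraries, and ARFYYGSSYWYFDV had 2, 1, 3 and 1 reads. Other V listings were counted only outside IGHV3. ARDY has no assigned D gene and was found on 8 to 17 such listings in each library. ARFYYGSSYWYFDV carries IGHD1-1 and was found on 6 to 10. ANGNYWYFDV occurred on no V listing outside IGHV3 in WT replicate 1, and on 1 and 2 in WT replicate 2 and Igll1-/- replicate 2. It occurred on 14 in Igll1-/- replicate 1, the library where it had 180 reads.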

How the data were processed

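Rearranged *Igh* loci were amplified by the authors from genomic DNA with framework region 3 and J primers, with primers added for IGHV12-3, and products of 120 to 280 bp were kept per the labels. The authors assigned reads with IMGT/High-V-QUEST (version not given in the sources used here) and deposited a table per library with the read count of each clonotype, the percent identity to the germline V gene, the V, D and J genes, the CDR3 and whether it is productive. The 6 *Igk* libraries were not used here. Here every clonotype added 1 to the count of its V gene, whatever its reads. Clonotypes listed with several V genes stayed in the library total only.

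V genes, families and pairs of V and J gene entered a test if 2 or more libraries held 10 or more of their clonotypes. The test was that of edgeR 4.0.16 (R 4.3.3; quasi-likelihood, library size all clonotypes, Benjamini-Hochberg adjustment over all features, threshold 0.05). The productive comparison used the interaction of genotype and productive status with the library as a term, for genes with at least 10 unproductive clonotypes. DESeq2 1.42.0 was an alternative, and single values were compared with exact permutation tests (scipy 1.17.1). The script was run on simulated data as a check of the code. The spread between simulated replicates was set in advance and not taken from these libraries, so that run does not give the power here. The named clonotypes are the largest productive clonotype of each member and library and those found in all libraries with most reads, and the large unproductive clonotype and the leading twins were named after their values were seen. Both replicates of a genotype differed over all V genes by more than sampling noise and were kept as separate samples. The members and lists were chosen with earlier results of these data known.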

Additional observations from a re-analysis of the deposited data

How the results depend on the processing

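Over 71 alternatives of the fitted results of the family, IGHV3-6 and IGHV3-3, 9 turned the direction. Those 9 were in the clonotype shares and in the productive change of IGHV3-3, so these directions are not firm. The productive change of the family and that of IGHV3-6 kept their sign in 8 alternatives each. Of the alternatives with 2 libraries per genotype, 0 passed the threshold (smallest edgeR adjusted p = 0.570, the family with at least 2 reads). Counting reads gave a log2 fold change of 0.12 for IGHV3-6 and 0.13 for the family. Leaving out each library in turn gave −0.72 to 0.17 for IGHV3-6, −0.23 to 0.64 for IGHV3-3 and −0.62 to 0.27 for the family. The signs turned without WT replicate 1 for IGHV3-6 (0.17) and the family (0.27), and for IGHV3-3 without WT replicate 2 (−0.23) and without Igll1-/- replicate 2 (−0.11). With at least 2 reads per clonotype the values were −0.76 for IGHV3-6, −0.60 for the family, and −1.54 for the productive change of the family and −2.18 for that of IGHV3-6. The productive change ran from −0.54 to −0.16 for the family, −0.51 to −0.01 for IGHV3-6 and −1.17 to 0.48 for IGHV3-3 when a library was left out. For IGHV3-3 it turned to 0.49 with near-identical clonotypes merged, 0.48 without WT replicate 2 and 0.18 without Igll1-/- replicate 2. The difference in mean CDR3 length became −0.18 amino acids with at least 2 reads per clonotype, and 0.00459 to 0.508 when a library was left out. With at least 10 reads it was 1.63, from few clonotypes. In WT replicate 2, for example, the 2 largest productive IGHV3-6 clonotypes had 16 and 10 reads, and no IGHV3-3 clonotype had more than 9. The cause was not tested. Member pairs of V and J gene called remained at 0 in every alternative that was run. The count of V genes called was 0, and became 1 by reads, with DESeq2 and without CDR3 twins (an alternative chosen after seeing the data), 3 with at least 10 reads, and 0 to 4 when a library was left out, with no IGHV3 member among them. With the replicate number as a block (replicate block), the log2 fold change was −0.28 for IGHV3-6, 0.19 for IGHV3-3 and −0.18 for the family (edgeR adjusted p = 0.856, 0.925 and 0.760), the productive change −0.34 for the family, −0.25 for IGHV3-6 and −0.19 for IGHV3-3, and 0 V genes and 0 member pairs were called, so the block changed no call. The labels give no shared origin to a number, and deviations of same-numbered libraries correlated at r = 0.16 across 91 V genes. With at least 10 reads neither a member nor the family was deep enough for the fit. Another definition of unproductive was not run because the tables hold only 2 classes. The 4 rare members are the least certain, since 2 of them rest on at most 1 clonotype in a library and 2 on none. Why so few were recovered was not tested.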
